A study of Mus musculus with 10 samples.

Results

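The genes described here are 30 genes of the circadian clock and its outputs, chosen by symbol from the 55385 genes of the deposited count table. All 30 were found, each in 1 row, and all 30 passed the filter on low counts that left 18491 genes for testing. By role they were 5 activators (Arntl, Clock, Npas2, Rora, Rorb), 11 repressors and their partners (Cry1, Cry2, Per1, Per2, Per3, Nr1d1, Nr1d2, Ciart, Bhlhe40, Bhlhe41, Timeless), 4 kinases and ubiquitin ligases (Csnk1d, Csnk1e, Fbxw11, Btrc) and 10 outputs (Dbp, Tef, Hlf, Nfil3, Usp2, Wee1, Klf9, Klf15, Tsc22d3, Por). Total RNA depleted of ribosomal RNA was read from left ventricles of C56Bl6 mice (the strain as the labels spell it). Control animals (5 libraries) ate a standard diet, and HFpEF animals (5 libraries) ate a high-fat diet and received L-NAME, which blocks nitric oxide synthases, each for 6 weeks. The second regimen is used to model heart failure with preserved ejection fraction. Age, sex and the hour of tissue harvest are not given in the sources used here, nor whether each library came from its own mouse. The p-values therefore measure the spread between these libraries.

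In the mammalian clock, CLOCK (or its relative NPAS2) and BMAL1, the product of Arntl, bind E-box DNA and switch on the Per and Cry genes, whose proteins return to block them. A second loop runs through response elements shared by the nuclear receptors REV-ERB (Nr1d1 and Nr1d2), which repress Arntl, and ROR, which activate it. Casein kinases and F-box ligases time the decay of PER proteins, and the factors DBP, TEF and HLF carry the rhythm to D-box genes, where NFIL3 opposes them. In the heart this clock paces fuel metabolism and ion channel genes. Levels of most of these transcripts swing over the day, and each library shows a single moment. A shift in timing and a change in level therefore cannot be told apart here, and in whole ventricle neither can fewer cells of a type and less RNA per cell.

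The Control libraries held 31555001 to 46108710 counts each and the HFpEF libraries 31286355 to 33604554, Control 4 and Control 5 being the deepest. Levels are given as CPM, counts per 1000000 on library sizes scaled by TMM, a method that balances libraries on the bulk of their genes. A fold change is HFpEF against Control on the log2 scale with its standard error. Adjusted p-values come from the quasi-likelihood test of edgeR with Benjamini-Hochberg adjustment over all genes tested, and a gene was called at an adjusted p under 0.05. The ventricular label was read against its markers: the 9 cardiomyocyte markers summed to between 68200 and 74840 CPM over all libraries. The 7 atrial markers summed to 63.9 to 82.5 CPM in Control libraries and 40.1 to 54.1 CPM in HFpEF libraries, nearly all of it Nppa and Tbx5, which ventricle also expresses, and 5 of the 7 averaged under 1 CPM over all libraries.

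The strongest differences lay in the repressor Ciart, the receptor gene Nr1d1 and the output gene Dbp, which fell, and in the cell cycle kinase gene Wee1, which rose. Of the 30 genes, 6 were called: 2 rose (Rora and Wee1) and 4 fell (Ciart, Nr1d1, Dbp and Timeless). Over all genes tested, 5.33% were called, 3.24% higher and 2.09% lower. A further 24 clock genes were not called, and 15 of the 30 had an unadjusted p under 0.05, against 20.5% of all genes tested. The median absolute log2 fold change of the 30 was 0.18, beside 0.11 over all genes tested, and their median signed value was -0.005 beside -0.011. The groups did not overlap in CPM for 2 genes higher in HFpEF (Rora and Wee1; 3.88% of all genes) and for 3 lower in HFpEF (Ciart, Nr1d1 and Dbp; 2.93% of all genes). The genes and lists were taken up with earlier results of these data known, and the falls of Ciart, Nr1d1 and Dbp were among them.

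**Figure D1:**
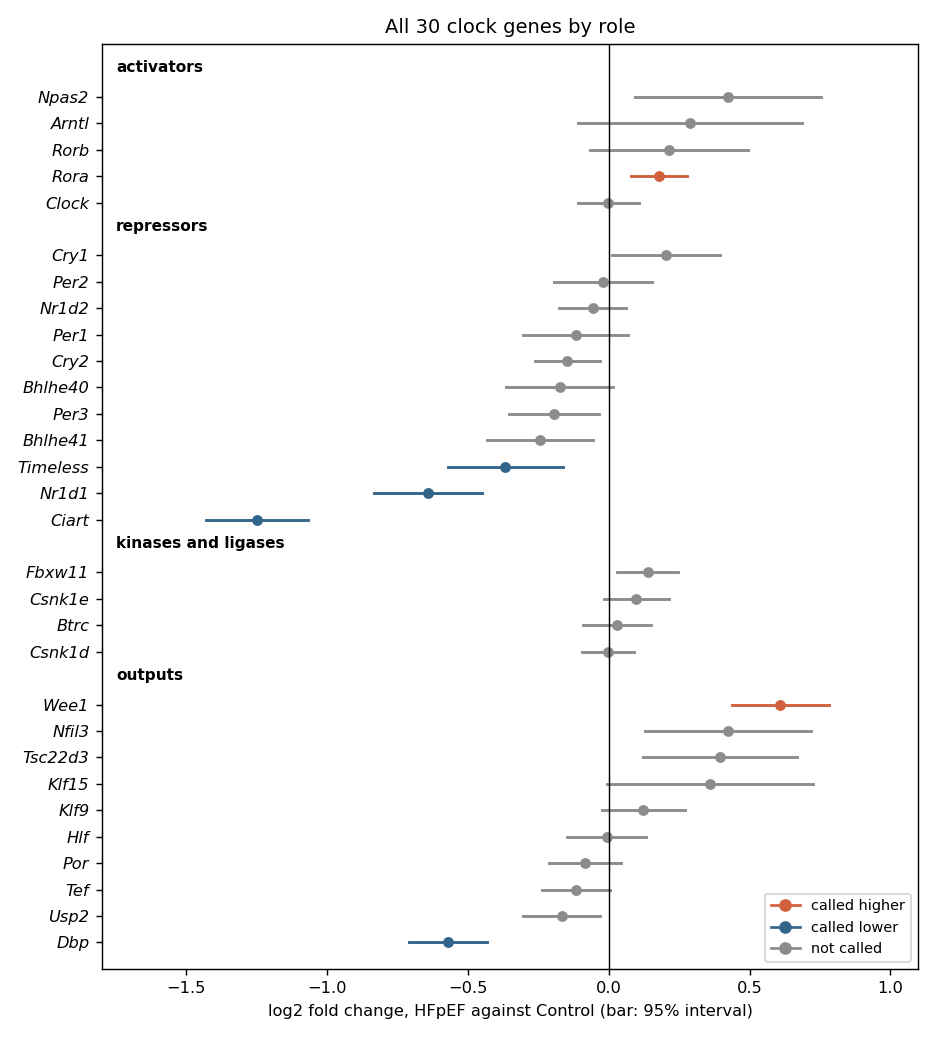
Log2 fold change (x axis, HFpEF against Control) of all 30 clock genes, in blocks by role, with 95% intervals as bars. Ciart lies farthest from 0 at -1.25, and Wee1 is the highest at 0.61.

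The sequence just before the start of the genes that fell most is shown because the clock acts there through E-boxes. The 3 stretches come from RefSeq promoters (build GRCm38.p6), 5′ to 3′ on the strand of the gene, cut where annotated untranslated exons begin. Capitals mark CACGTG, the E-box, and CACGTT, a weaker E-box variant, on either strand (AACGTG is the same variant read on the other strand).

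Ciart, chr3:95882252-95882478, minus strand: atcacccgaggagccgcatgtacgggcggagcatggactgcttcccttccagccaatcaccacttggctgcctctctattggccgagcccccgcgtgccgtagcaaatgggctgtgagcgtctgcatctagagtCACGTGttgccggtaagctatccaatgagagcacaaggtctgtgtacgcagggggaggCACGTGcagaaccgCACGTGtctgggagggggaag
Nr1d1, chr11:98775378-98775627, minus strand: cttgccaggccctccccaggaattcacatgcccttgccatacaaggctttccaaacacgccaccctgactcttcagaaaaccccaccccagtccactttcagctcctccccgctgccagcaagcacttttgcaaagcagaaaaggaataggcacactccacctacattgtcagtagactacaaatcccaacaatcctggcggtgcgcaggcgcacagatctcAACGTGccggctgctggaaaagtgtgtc
Dbp, chr7:45704997-45705087, plus strand: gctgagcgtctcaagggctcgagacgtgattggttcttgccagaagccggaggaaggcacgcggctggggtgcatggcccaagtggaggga

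The Ciart stretch holds 3 E-boxes within 227 bases, the Nr1d1 stretch holds 1 variant E-box and the 91 bases of Dbp hold neither. For Dbp, 159 of the 250 bases before the start were left out as untranslated exon, and its whole promoter of 300 bases held neither. Sequence outside these promoters, introns included, was not searched for any gene. Of the 30 genes, 25 had at least 1 entry among the RefSeq promoters, with 36 promoters of 300 bases in all. Per2, Bhlhe40, Csnk1d, Btrc and Wee1 had none. CACGTG was found in 19.4% of these 36 promoters and in 7.15% of all 32851 promoters, and CACGTT in 11.1% against 4.68%. The 6 genes with CACGTG were Cry1, Per1, Ciart, Bhlhe41, Tef and Klf15, and their log2 fold changes ran from -1.25 to 0.36 with Ciart alone called. The D-box TTATGTAA was found for Per3 and Timeless (5.56% of promoters against 0.938%), and its form TTACGTAA for none of the 25 (0.119% of all promoters). AGGTCA, the core of the element read by REV-ERB and ROR, was in 13.9% against 16.3% of all promoters, for Arntl, Clock, Per1, Nr1d2 and Nfil3. A match is a description of the sequence and says nothing of binding in these hearts.

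Among the activators, 1 of 5 rose and the other 4 were not called, with a median log2 fold change of 0.215. Rora encodes the nuclear receptor ROR alpha (ENSMUSG00000032238.17, protein-coding, mm10 chromosome 9, 68653786 to 69388246, plus strand). It stood at 60.3, 65.6, 58.2, 65.1 and 61.8 CPM in Control 1 to 5 and at 70.2, 66.7, 72.2, 71.3 and 71.8 CPM in HFpEF 1 to 5. Every HFpEF library lay above every Control library, with the closest approach between HFpEF 2 and Control 2. The rise was small, 0.18 ± 0.05 (SE, n = 5 a group; edgeR adjusted p = 0.0372), and its call ended without any of Control 1, Control 3, Control 5, HFpEF 3, HFpEF 4 or HFpEF 5 (adjusted p up to 0.0952).

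Clock itself was not called, with a mean of 54.0 ± 3.73 CPM over the Control libraries against 53.9 ± 1.23 CPM over the HFpEF libraries (SD, n = 5). The 95% interval of the log2 fold change ran from -0.11 to 0.11. The activator genes Arntl, Npas2 and Rorb were scarce in these libraries. Arntl had 46, 39, 35, 31 and 59 counts in Control 1 to 5 and 39, 33, 44, 41 and 53 counts in HFpEF 1 to 5, before any scaling for depth, and in CPM the groups overlapped (0.29 ± 0.19, 95% interval -0.11 to 0.69, edgeR adjusted p = 0.414). Npas2, the alternative partner of BMAL1, stood at 2.71, 1.96, 2.48, 2.30 and 1.61 CPM in Control 1 to 5 and at 2.85, 2.37, 2.56, 3.43 and 3.52 CPM in HFpEF 1 to 5. Here 3 HFpEF libraries lay above every Control library, and HFpEF 2 and HFpEF 3 lay within the Control range (0.42 ± 0.16, edgeR adjusted p = 0.131). Rorb, a ROR gene better known from brain and retina, lay between 2.64 and 4.00 CPM in Control libraries and between 3.07 and 3.86 CPM in HFpEF libraries (0.21 ± 0.13, edgeR adjusted p = 0.385). Npas2 had 66 to 114 counts per library, and whether depth kept it from a call was not tested.

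Of the 11 repressors and partners, 3 fell, none rose and 8 were not called. Their median log2 fold change was -0.17, and 10 of the 11 values were negative, Cry1 being the exception. Both DESeq2 and voom also called 3 of this group lower and 0 higher. Over all genes DESeq2 called 7.76% (5.05% higher, 2.71% lower) and voom 5.15% (3.18% higher, 1.97% lower). In edgeR, 7 of the 11 had an unadjusted p under 0.05.

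Ciart encodes CHRONO, a repressor that binds BMAL1 (ENSMUSG00000038550.10, protein-coding, mm10 chromosome 3, 95878503 to 95882251, minus strand). It stood at 11.9, 14.0, 14.3, 14.9 and 13.2 CPM in Control 1 to 5 and at 4.82, 6.42, 5.74, 6.26 and 5.50 CPM in HFpEF 1 to 5. The highest HFpEF library, HFpEF 2, was thus well below the lowest Control library, Control 1. The level was 2.38-fold lower in HFpEF (log2 fold change -1.25 ± 0.09, edgeR adjusted p = 1.96e-06), which placed Ciart at rank 2 by p-value among all genes tested. No exon of Ciart overlaps another annotated gene.

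Nr1d1 encodes REV-ERB alpha, the heme-binding receptor that represses Arntl (ENSMUSG00000020889.11, protein-coding, mm10 chromosome 11, 98767932 to 98775333, minus strand). Its Control libraries read 114, 142, 124, 118 and 123 CPM and its HFpEF libraries 79.8, 98.4, 68.3, 77.6 and 73.4 CPM, in order of number. Again the groups did not overlap, and HFpEF 2 came nearest to Control. The fall was 1.56-fold (-0.64 ± 0.09, edgeR adjusted p = 0.00101). Exons of Thra, on the opposite strand, cover 8.5% of the exonic bases of Nr1d1. Thra, the thyroid hormone receptor alpha gene, was not called (0.04 ± 0.06, edgeR adjusted p = 0.764). The close relative Nr1d2 (REV-ERB beta) averaged 144 ± 8.62 CPM over Control and 138.5 ± 8.49 CPM over HFpEF (SD, n = 5). The 95% interval of its log2 fold change ran from -0.18 to 0.06, apart from that of Nr1d1, which ran from -0.83 to -0.45. The difference between the paralogs was not tested.

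Timeless, whose product can bind PER and CRY proteins and is best known from DNA replication forks (ENSMUSG00000039994.15, protein-coding, mm10 chromosome 10, 128232065 to 128252941, plus strand), was lower in HFpEF. It read 6.13, 7.38, 7.73, 6.14 and 7.49 CPM in Control 1 to 5 and 5.04, 6.39, 5.29, 4.86 and 5.41 CPM in HFpEF 1 to 5. The groups overlapped, since HFpEF 2 exceeded both Control 1 and Control 4. The fall (-0.37 ± 0.10, edgeR adjusted p = 0.0371) was called in 11 of the 19 alternative fits and in 3 of the 10 that left out 1 library. The call ended without any of Control 2, 3 and 5 or HFpEF 1, 3, 4 and 5, with an adjusted p of 0.0935 at most.

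The Per and Cry genes, the core of the negative limb, were not called. Per1 averaged 108 ± 14.2 CPM over Control and 99.0 ± 8.64 CPM over HFpEF (SD, n = 5; -0.12 ± 0.09), and Per2 averaged 71.3 ± 9.33 and 70.4 ± 4.51 CPM (-0.02 ± 0.08). Both Per1 and Per2 overlapped between the groups. Per3 read 92.0, 90.0, 102, 98.3 and 74.7 CPM in Control 1 to 5 and 88.1, 73.2, 76.2, 80.0 and 81.3 CPM in HFpEF 1 to 5. Control 5 lay far below the other Control libraries, among the HFpEF values. Per3 was not called with all libraries (-0.19 ± 0.08, edgeR adjusted p = 0.155) and was called lower without Control 5 (-0.25, adjusted p = 0.0252). Cry1 and Cry2, which encode the cryptochromes that silence CLOCK and BMAL1, had opposite signs. Cry1 stood at 7.32 ± 0.870 and 8.47 ± 0.747 CPM (0.20 ± 0.09, edgeR adjusted p = 0.212), and Cry2 at 33.2 ± 2.55 and 29.97 ± 0.794 CPM (-0.15 ± 0.05, edgeR adjusted p = 0.135; SD, n = 5).

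Bhlhe40 and Bhlhe41 encode DEC1 and DEC2, which compete for E-boxes. Bhlhe41 read 43.2, 44.3, 31.9, 45.2 and 45.9 CPM in Control 1 to 5 and 34.0, 39.5, 34.4, 34.0 and 36.1 CPM in HFpEF 1 to 5. Control 3 stood below every HFpEF library, while the other Control libraries stood above them all. It was not called (-0.24 ± 0.09, edgeR adjusted p = 0.127), and without Control 3 it was called lower (-0.33, adjusted p = 0.00251). A gene model on the opposite strand covers 19.0% of its exonic bases. Bhlhe40 lay between 39.0 and 50.7 CPM in Control libraries and between 34.0 and 45.7 CPM in HFpEF libraries (-0.17 ± 0.09, edgeR adjusted p = 0.290).

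**Figure D2:**
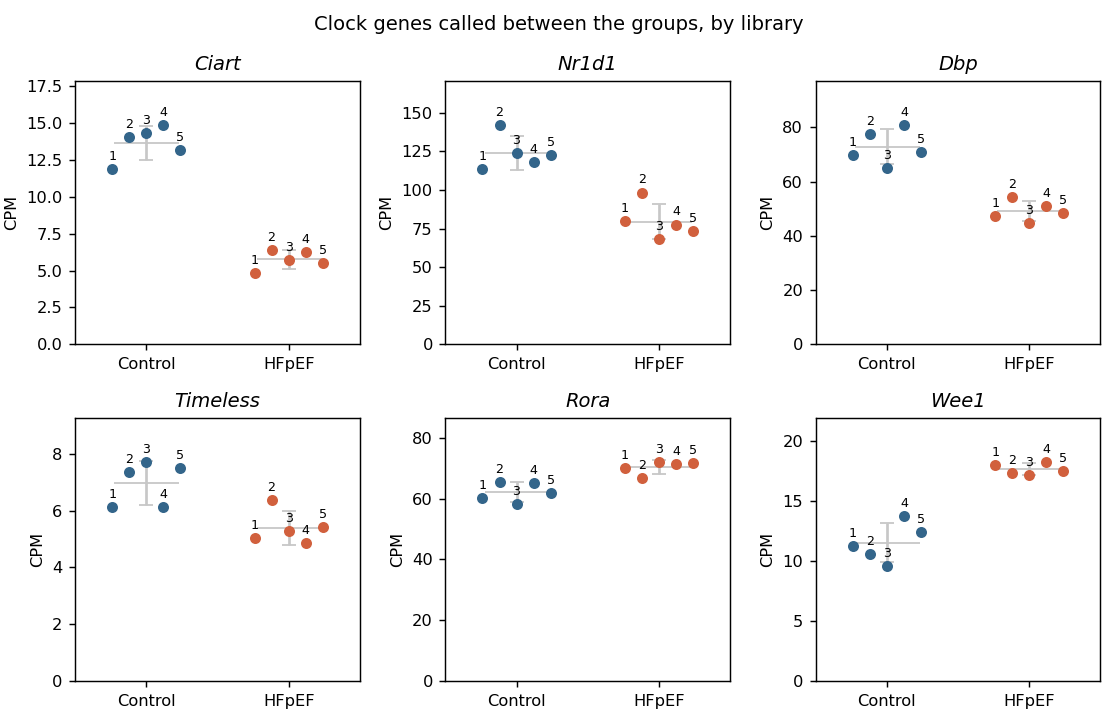
CPM (y axis, from 0) of the 6 called genes in each library, with the library number beside each point and the mean ± SD (n = 5) in grey. The groups do not overlap for Ciart, Nr1d1, Dbp, Rora and Wee1, and HFpEF 2 is the HFpEF library nearest to Control for each of the genes that fell.

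None of the 4 kinase and ligase genes was called by edgeR, DESeq2 or voom, and 1 had an unadjusted p under 0.05. Csnk1d and Csnk1e encode the casein kinases that mark PER proteins for decay. Csnk1d averaged 37.9 ± 1.65 CPM over Control and 37.8 ± 0.572 CPM over HFpEF (SD, n = 5; 95% interval of the log2 fold change -0.10 to 0.09). Csnk1e stood at 28.7 ± 1.74 and 30.7 ± 1.55 CPM (0.10 ± 0.05, edgeR adjusted p = 0.327). Btrc and Fbxw11 encode the beta-TrCP ligase subunits that recognise marked PER proteins. Btrc stood at 19.6 ± 1.09 and 19.9 ± 1.16 CPM (0.03 ± 0.06), and Fbxw11, the member with the low unadjusted p, at 32.5 ± 2.01 and 35.8 ± 1.34 CPM (0.14 ± 0.05, edgeR adjusted p = 0.133).

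Of the 10 outputs, 1 rose, 1 fell and 8 were not called, with a median log2 fold change of 0.06. Dbp, the albumin D-site binding protein gene (ENSMUSG00000059824.12, protein-coding, mm10 chromosome 7, 45705088 to 45710203, plus strand), read 69.8, 77.7, 65.1, 80.9 and 70.9 CPM in Control 1 to 5 and 47.3, 54.2, 44.7, 51.0 and 48.4 CPM in HFpEF 1 to 5. The groups did not overlap, and HFpEF 2 was once more the highest of its group. Dbp fell 1.49-fold (-0.57 ± 0.07, edgeR adjusted p = 0.000210). Exons of Sphk2, a sphingosine kinase gene on the opposite strand, cover 18.0% of the exonic bases of Dbp, and Sphk2 also fell (-0.31 ± 0.07, edgeR adjusted p = 0.0182). The strand setting of the counting is not given in the sources used, so reads of the shared stretch cannot be told apart.

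The related D-box factors Tef and Hlf were not called. Tef lay between 150 and 176 CPM in Control libraries and between 136 and 156 CPM in HFpEF libraries (-0.12 ± 0.06, edgeR adjusted p = 0.269). Hlf stood at 56.1 ± 5.65 and 55.8 ± 3.39 CPM (SD, n = 5), with a 95% interval from -0.15 to 0.13 that lies apart from that of Dbp (-0.71 to -0.43). Nfil3, which encodes the D-box repressor E4BP4, read 2.05, 1.599, 1.85, 2.26 and 2.51 CPM in Control 1 to 5 and 2.50, 3.02, 3.08, 3.03 and 2.29 CPM in HFpEF 1 to 5. HFpEF 2, 3 and 4 stood above every Control library, and HFpEF 1 and HFpEF 5 did not. At 54 to 126 counts per library it was not called (0.42 ± 0.14, edgeR adjusted p = 0.0907), and without Control 5 it was called higher (0.52, adjusted p = 0.0464).

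Wee1, a clock-controlled gene whose kinase holds CDK1 inactive before mitosis (ENSMUSG00000031016.9, protein-coding, mm10 chromosome 7, 110122046 to 110143286, plus strand), read 11.3, 10.6, 9.55, 13.8 and 12.4 CPM in Control 1 to 5. In HFpEF 1 to 5 it read 18.0, 17.3, 17.1, 18.3 and 17.5 CPM. The HFpEF libraries lay within a narrow band above all Control libraries. The rise was 1.53-fold (0.61 ± 0.08, edgeR adjusted p = 0.000531). Together with Ciart, Nr1d1 and Dbp, Wee1 made up the 4 genes called in every one of the 19 alternative fits.

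Klf9, Klf15 and Tsc22d3 encode factors that respond both to the clock and to glucocorticoids, and Klf15 is known to drive cardiac lipid and amino acid use. Tsc22d3 (GILZ) read 43.9, 49.1, 58.0, 65.1 and 46.7 CPM in Control 1 to 5 and 57.5, 59.96, 73.5, 80.3 and 74.5 CPM in HFpEF 1 to 5. HFpEF 3, 4 and 5 stood above every Control library, and HFpEF 1 and 2 stood within the Control range. Klf15 read 15.5, 16.8, 18.4, 18.5 and 11.2 CPM in Control and 15.8, 16.9, 22.4, 24.2 and 23.7 CPM in HFpEF, with the same 3 libraries on top. Klf9 read 120, 129, 115, 141 and 115 CPM in Control and 121, 124, 143, 142 and 145 CPM in HFpEF, and HFpEF 3, 4 and 5 led again. Control 4 was the highest Control library for all 3 genes. None was called (edgeR adjusted p = 0.0976 for Tsc22d3, 0.253 for Klf15 and 0.342 for Klf9; log2 fold changes 0.40 ± 0.12, 0.36 ± 0.16 and 0.12 ± 0.07). Without Control 4 the value of Tsc22d3 was 0.49 and was called (edgeR adjusted p = 0.0286), and DESeq2 called it with all libraries (adjusted p = 0.0123).

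Usp2, a deubiquitinase gene, lay between 77.2 and 90.3 CPM in Control libraries and between 68.2 and 81.4 CPM in HFpEF libraries (-0.17 ± 0.06, edgeR adjusted p = 0.153). Por, the cytochrome P450 reductase gene, stood at 20.4 ± 1.13 and 19.3 ± 1.43 CPM (SD, n = 5; -0.08 ± 0.06, edgeR adjusted p = 0.468).

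**Figure D3:**
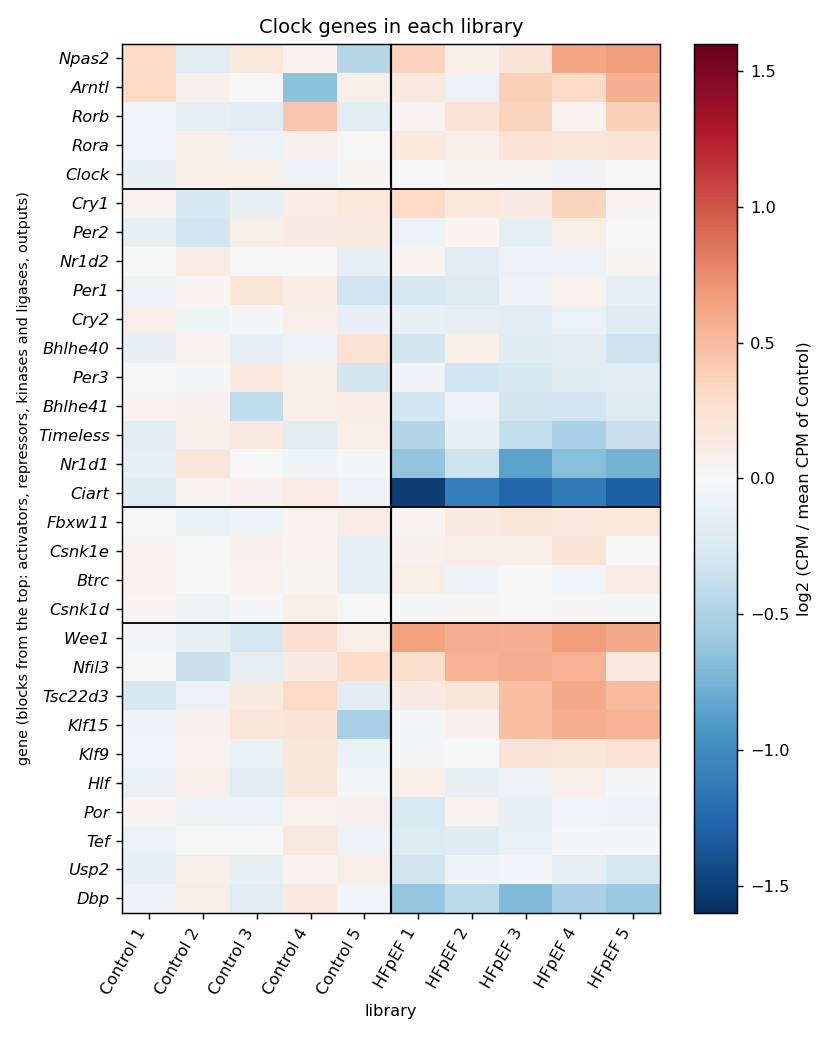
Level of each clock gene (rows, in blocks by role) in each library (columns), as log2 of CPM over the mean CPM of Control. Ciart, Nr1d1 and Dbp are lower in every HFpEF library, Wee1 is higher in every one, and Klf15 and Tsc22d3 are highest in HFpEF 3, 4 and 5.

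The libraries of a group did not all stand equally far from the other group. Of the 5 HFpEF libraries, HFpEF 2 stood nearest to the Control mean for 10 of the 30 genes, and the others for 4 to 7 each, a count made after the values were seen. The 10 were Ciart, Nr1d1, Dbp, Timeless, Rora, Arntl, Npas2, Bhlhe40, Bhlhe41 and Klf9. HFpEF 2 stood farthest from the Control mean for 4 genes (Per3, Nr1d2, Csnk1d and Hlf), and for the called gene Wee1 the nearest library was HFpEF 3. Without HFpEF 2 the same 6 genes were called, and the log2 fold change of Nr1d1 was -0.73. The lowest Control value was in Control 1 for Ciart, Nr1d1 and Timeless and in Control 3 for Dbp.

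Compared per kilobase of exon, the 30 genes spanned a wide range of levels. Nr1d1 was the most abundant in Control at 40.3 ± 3.53 CPM per kilobase, ahead of Nr1d2 (26.6 ± 1.59), Klf9 (25.8 ± 2.27) and Dbp (24.4 ± 2.12), which did not differ beyond their spread (SD, n = 5). In HFpEF, Klf9 (28.0 ± 2.43), Nr1d1 (25.8 ± 3.71) and Nr1d2 (25.6 ± 1.57) stood together at the top, and Dbp was at 16.4 ± 1.22 CPM per kilobase. Ciart went from 6.04 ± 0.513 to 2.54 ± 0.283 CPM per kilobase. The scarcest were Npas2 (0.462 in Control), Rorb (0.268) and Arntl (0.146), while Clock stood at 3.94 CPM per kilobase. These levels use the union of annotated exons as length, which can overstate the length of the transcripts present in heart.

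**Figure D4:**
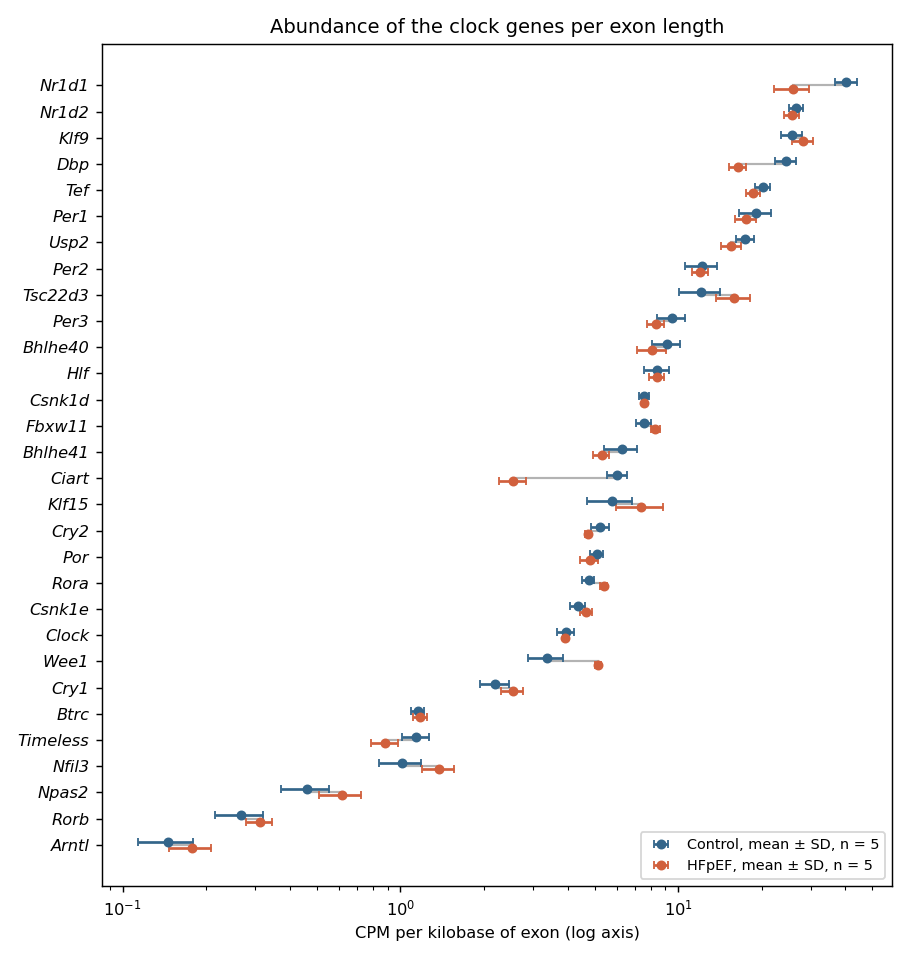
CPM per kilobase of exon (log axis) for each clock gene, as mean ± SD of the 5 libraries of each group. Nr1d1 leads in Control at 40.3 and Arntl is the lowest at 0.146, and the gap between the groups is widest for Ciart.

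Other genes of the clock machinery were read from a list of known parts. Of 36 further regulators (kinases, phosphatases, ligase subunits, chromatin partners), 3 rose, none fell and 33 were not called. The share called was 8.33%, beside 5.33% of all genes tested. The median log2 fold change was 0.04 beside -0.01 over all genes. Nampt, the NAD-producing enzyme gene under E-box control, rose from 123 ± 11.7 to 150 ± 12.3 CPM (SD, n = 5; 0.28 ± 0.07, edgeR adjusted p = 0.0267). The PP1 phosphatase subunit gene Ppp1cb rose by 0.19 ± 0.05 (adjusted p = 0.0339, edgeR). With 1 library left out, the call of Nampt ended without Control 1, Control 3, HFpEF 3, HFpEF 4 or HFpEF 5. Ppp1cb was still called in 3 of 10 such fits, without Control 2, Control 5 or HFpEF 1, and the other 7 gave an adjusted p of 0.0923 at most. With the pair Control 4 and Control 5 left out, neither was called (adjusted p = 0.0887 for Nampt and 0.0661 for Ppp1cb). DESeq2, which called 7.76% of all genes, called 6 of the 36 higher and 0 lower.

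Of 28 other genes known to follow a daily rhythm in heart or liver, 25 were tested, 3 rose and 1 fell. The share called was 16%, beside 5.33% of all genes tested, and the median log2 fold change was 0.17. Noct, which encodes the rhythmic phosphatase nocturnin, rose by 0.28 ± 0.06 (edgeR adjusted p = 0.0176), and its call ended without HFpEF 3 (adjusted p = 0.0553) and without Control 4 and Control 5 together (0.0917). Tspan4, a tetraspanin gene, fell from 13.2 ± 0.921 to 10.04 ± 0.821 CPM (SD, n = 5; -0.39 ± 0.07, edgeR adjusted p = 0.00495). DESeq2 called 7 of this list higher and 2 lower, against 5.05% higher and 2.71% lower over all genes.

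Since Per1, Klf9, Klf15 and Tsc22d3 also answer to glucocorticoids, 24 other genes known for that response were read. Of them 4 rose, 1 fell and 19 were not called. The share called was 20.8%, beside 5.33% of all genes tested. The median log2 fold change was 0.24 beside -0.01 over all genes. With voom, which called 5.15% of all genes, 3 were called higher and 0 lower. With DESeq2, which called 7.76%, 5 were called higher and 1 lower. Zbtb16, a zinc finger repressor gene, read 115, 115, 126, 136 and 135 CPM in Control 1 to 5 and 172, 172, 174, 210 and 225 CPM in HFpEF 1 to 5 (0.61 ± 0.08, edgeR adjusted p = 0.000931). Pik3r1, a regulatory subunit of PI3 kinase, read 140, 153, 156, 179 and 158 CPM in Control and 181, 183, 215, 234 and 219 CPM in HFpEF (0.39 ± 0.08, edgeR adjusted p = 0.0105). As for Klf15 and Tsc22d3, HFpEF 1 and 2 lay below HFpEF 3, 4 and 5 for Pik3r1. Gadd45g, a stress-induced growth arrest gene, rose by 1.13 ± 0.17 (edgeR adjusted p = 0.00107). Angptl4, an inhibitor of lipoprotein lipase and also a target of PPAR receptors, was named after its value was seen (1.65 ± 0.38, edgeR adjusted p = 0.0417). With 1 library left out it was called in 2 of 10 fits, those without HFpEF 1 or HFpEF 4. Mt2, a metallothionein gene that also answers to metals, fell by 1.63 on the log2 scale (edgeR adjusted p = 0.0290), and its call ended without Control 2, HFpEF 1, HFpEF 2, HFpEF 4 or HFpEF 5. Angptl4 and Mt2 also lost their calls with voom (adjusted p = 0.0614 and 0.0683), with no filter on low counts (0.0741 and 0.0672) and without Control 4 and Control 5 together (0.149 and 0.0696).

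Of 13 genes that follow body temperature, another cue that sets peripheral clocks, edgeR, DESeq2 and voom each called 0, and 1 had an unadjusted p under 0.05 in edgeR. That gene, Rbm3, a cold-inducible RNA-binding protein gene, averaged 36.1 ± 3.99 CPM over Control and 31.7 ± 3.54 CPM over HFpEF (SD, n = 5; -0.19 ± 0.09, edgeR adjusted p = 0.240). The list had 12 negative values of 13 and a median of -0.09, beside 9765 negative values of 18491 and a median of -0.01 over all genes. It holds cold-inducible and heat shock genes together, so a shared sign has no single reading for temperature. For the heat shock genes Hspa1a and Hsph1, Control 5 was the highest Control library (10.9 and 34.5 CPM). HFpEF 2 was the highest HFpEF library for both (6.08 and 21.1 CPM).

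Markers of the cell types of the ventricle were read beside these results. Of 8 endothelial markers 2 fell, Egfl7 (-0.30 ± 0.07) and Emcn (-0.27 ± 0.07; edgeR adjusted p = 0.0225 and 0.0447), and the markers summed to 989 to 1188 CPM per Control library against 939 to 1044 CPM per HFpEF library. Of 9 cardiomyocyte markers 1 fell, Tnnt2 (-0.22 ± 0.05, edgeR adjusted p = 0.0185). No call was made by edgeR among 8 fibroblast, 8 smooth muscle and pericyte, 8 tested macrophage and leukocyte, or 5 tested red blood cell markers, of which 2, 1, 3 and 0 had an unadjusted p under 0.05. DESeq2 called 1 cardiomyocyte marker higher and 1 lower, 1 fibroblast marker higher and 2 macrophage and leukocyte markers lower. The macrophage and leukocyte markers summed to 109.6 to 186 CPM in Control libraries and 93.3 to 121.6 CPM in HFpEF libraries. Of 4 tested atrial markers 1 fell, the natriuretic peptide gene Nppa (-1.19 ± 0.22, edgeR adjusted p = 0.0187), and of 2 tested fat markers 1 rose, Cidea (0.65 ± 0.12, edgeR adjusted p = 0.00796). The fat markers summed to 350 to 390 CPM in Control libraries and 347 to 458 CPM in HFpEF libraries. Nearly all of this was Fabp4, with means of 368 CPM over Control and 382 CPM over HFpEF, and it was not called. Cidea averaged 7.62 and 11.98 CPM, and 4 of the 6 fat markers averaged under 1 CPM over all libraries. Of 7 skeletal muscle markers 6 averaged under 1 CPM, and the 1 tested was called by none of edgeR, DESeq2 and voom. Ucp1, which defines brown fat, had 0 counts in every library. The part of cell composition in the differences of the clock genes was not tested.

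**Figure D5:**
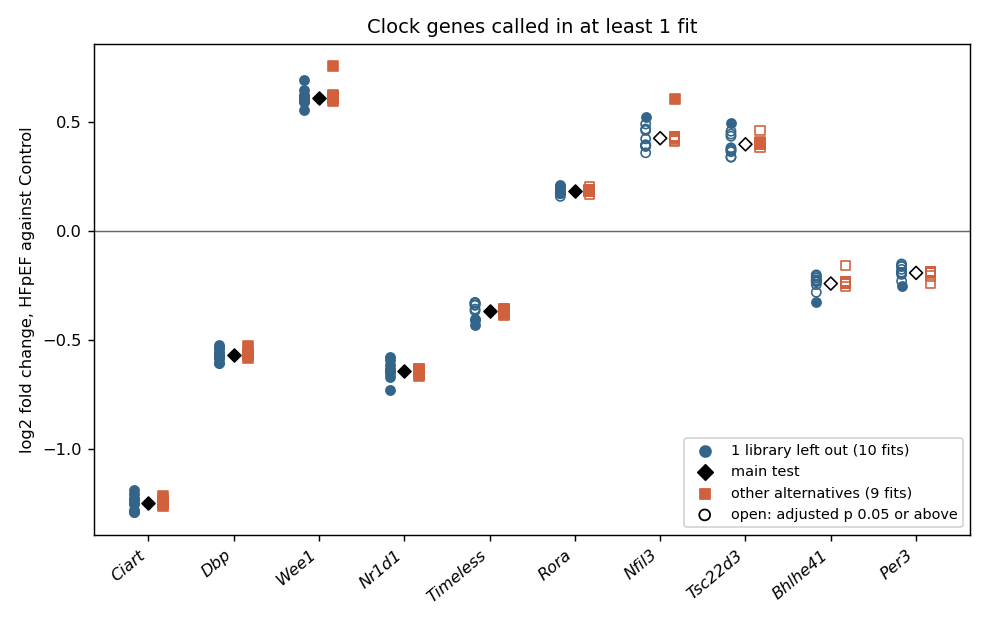
Log2 fold change (y axis) of the 10 clock genes called in at least 1 fit, for the main test, the 10 fits that left out 1 library and the 9 other alternatives, open where the adjusted p was 0.05 or above. Ciart, Dbp, Wee1 and Nr1d1 are filled in every fit, while Timeless and Rora change between filled and open.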

How the data were processed

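RNA-seq counts from 10 left ventricle libraries, 5 Control and 5 HFpEF, were analysed. The values are expected counts per gene as deposited by the authors, whole numbers without normalization. The submitters' processing notes name Bowtie2 2.1.0, RSEM 1.2.15 and build mm10, without their role; the annotation release, the strand setting and any rounding are not given in the sources used here. RSEM divides reads that match several transcripts. Rounding here changed 0 values, and 92 spike-in rows with 0 counts were left out. Each of the 20 same-group pairs of libraries differed beyond counting noise.

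Genes were filtered with filterByExpr (minimum count 10) and tested with edgeR 4.0.16 in R 4.3.3 (TMM, robust quasi-likelihood fit, group as the term, Benjamini-Hochberg adjustment at 0.05). The script was tested on simulated data. Standard errors were taken as the absolute log2 fold change over the root of F. Alternatives were RLE and upper quartile scaling, leaving out mt- genes, no filter, a mean of at least 1 CPM, DESeq2 1.42.0, voom (limma 3.58.1), a replicate block, and leaving out each library. Leaving out Control 4 and Control 5 together, the deepest, was added after the data were seen. Coordinates, exon lengths and overlaps come from GENCODE M21 (mm10), matched by identifier without version for 55144 of 55385 genes.

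The members and lists were chosen with earlier results of these data known. All 30 members are named; of each pathway list up to 4 called genes with the smallest p, or, in a list without a call, the gene of lowest p. For marker lists the most expressed member was also set to be named, which is given here: Ttn, Nppa, Cdh5, Dcn, Rgs5, Lyz2, Hba-a2, Fabp4 and Acta1, of which Nppa was called. Called genes of the pathway lists that are counted but not named are not reported here. Other marker genes were named after their values were seen.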

Additional observations from a re-analysis of the deposited data

Results flagged for a closer look

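Within groups of 5 libraries, 80 groups of values were read for a library far from the others, 60 of them of clock genes, and 5 were found, 3 of them in clock genes. Chance gives about 1 such group in 20.

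Bhlhe41 was at 31.9 CPM in Control 3, below the 43.2 to 45.9 CPM of the other Control libraries. Rorb was at 4.00 CPM in Control 4, above the 2.64 to 2.89 CPM of the others. Clock was at 51.8 CPM in HFpEF 4, below the 54.1 to 54.8 CPM of the others, a narrow range. Among the genes of the other lists, HFpEF 1 was high for Angptl4 (23.3 CPM, others 7.43 to 11.2), and HFpEF 3 was high for Ppp1cb (227 CPM, others 202 to 207).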

How the results depend on the processing

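Over the 19 alternatives Ciart, Nr1d1, Dbp and Wee1 kept their direction and call. Rora was called in 9 and Timeless in 11; besides single libraries and the block, Rora lost its call with upper quartile scaling (adjusted p = 0.0506) and with no filter (0.0605), and both without Control 4 and Control 5 together (0.0643 and 0.0640). The count of called clock genes ran from 4 to 7 when 1 library was left out, and the count of all called genes from 554 (without HFpEF 3) to 1101, with 630 without Control 1 and 633 without HFpEF 4. Per3 and Bhlhe41 were called in 1 alternative each, Nfil3 in 2 and Tsc22d3 in 3, and 20 of the 30 clock genes in none. Values near 0 turned sign: Clock to 0.004 with RLE scaling, 0.001 with the stricter filter, 0.007 with DESeq2 and 0.001 with voom; Csnk1d to 0.002, 0 and 0.004 with the first 3 of these; and Hlf to 0.001 with DESeq2. Without Control 4 and Control 5 together, Per2 read 0.083, Csnk1d 0.026, Hlf 0.054 and Btrc -0.008. When 1 library was left out, Clock ran from -0.029 to 0.030, Csnk1d from -0.016 to 0.024, Hlf from -0.047 to 0.050 and Per2 from -0.079 to 0.028. The cause was not tested.

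Libraries of the 2 groups share replicate numbers. Over the 2000 genes that varied most within groups, 0 of 5 same-numbered pairs deviated together (correlations from -0.13 to 0.034). The numbers were therefore not taken as pairs in the main test. Single genes and the clock genes as a set were not checked in this way. Tsc22d3 was lowest in Control 1 and HFpEF 1 and highest in Control 4 and HFpEF 4. How many genes share such an order was not counted. With the replicate block 744 genes and 6 clock genes were called, 5 of them shared with the main test; Rora was not called (0.18, adjusted p = 0.111), Tsc22d3 was (0.40, adjusted p = 0.00577), and Clock read 0. Of the genes named from the other lists, Nampt (adjusted p = 0.0651) and Ppp1cb (0.113) lost their calls with the replicate block. About 31 to 59 counts per library limit what can be said of Arntl.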
